A study of Mus musculus with 58 samples.

Results

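Whether the brain's transcriptional response to traumatic brain injury (TBI) depended on the APOE isoform was examined in mice with both copies of Abca1. The comparison was the interaction contrast, that is, the change from sham to TBI in E4 mice minus the change from sham to TBI in E3 mice. The 30 mice that belong to it were chosen by their genotype and treatment labels, out of 58 mice in the series. The remaining 28 mice carried a single Abca1 copy and were used only for the same contrast in a separate set of animals.

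In these lines the mouse Apoe coding sequence was replaced with human APOE3 or APOE4 on both chromosomes (E3/Abca1+/+ and E4/Abca1+/+), so no group carries the mouse protein and there was no group without human APOE. All mice were 3 months old, on a C57BL/6 background, and of both sexes. TBI mice received 1 controlled cortical impact over the left parietal cortex, and sham mice had the same anaesthesia and craniotomy with no impact, so the sham groups also carry a surgical opening of the skull. Hippocampal and cortical tissue of the injury site was pooled 14 days later, with the subcortical tissue dissected away. There were 8 E3 sham, 8 E3 TBI, 7 E4 sham and 7 E4 TBI mice, with 4 males in each group. In such bulk tissue fewer cells of a type and less RNA per cell cannot be told apart.

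APOE is the main lipid carrier of the brain. It is secreted largely by astrocytes and, after injury, by microglia, and it is loaded with cholesterol and phospholipid by the transporter ABCA1. The APOE4 isoform is known as a risk factor for Alzheimer's disease and is generally held to be less well lipidated than APOE3. A cortical impact is followed by a lasting glial reaction, in which microglia turn on phagocytic, lysosomal and antigen presentation genes and astrocytes turn on structural and acute-phase genes, while neuronal and synaptic transcripts fall.

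Library totals ran from 4421308 to 17148953 counts and fell in 2 ranges, below and above 8000000 counts, both present in every group. The 3 counts taken as a detection floor correspond to 0.679 CPM (counts scaled to library size) in the shallowest library and 0.175 CPM in the deepest. Reads counted on the mouse Apoe gene were low in all groups, between 16.4 and 27.5 CPM. They rose with injury by 0.30 on the log2 scale in E3 (adjusted p = 0.00886) and by 0.26 in E4 (adjusted p = 0.0469, edgeR). The Apoe interaction was −0.04 (95% interval −0.29 to 0.21). Abca1 rose with injury in both isoforms, by 1.81 in E3 and by 1.77 in E4, with an interaction of −0.04 (95% interval −0.61 to 0.52). Transcripts of Ttr, the thyroid hormone carrier made by the choroid plexus, exceeded 100 CPM in 5 libraries, namely E3 TBI replicate 7, E4 sham replicates 5 and 7, and E4 TBI replicates 5 and 6. All 15 cortical layer genes, all 15 hippocampal subfield genes and all 18 myelin and oligodendrocyte genes listed passed the filter on low counts. So did all 12 genes listed for thalamus and striatum, so passing the filter does not verify the dissection. No mice had identical counts.

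The injury responses of E3 and E4 mice did not differ past the threshold for any single gene. Of 14505 genes tested, 0 passed an adjusted p of 0.05 for the interaction (edgeR quasi-likelihood test with Benjamini-Hochberg adjustment over all genes), so the share called was 0%. At an unadjusted p under 0.05 there were 152 genes with a higher response in E4 (1.05% of those tested) and 154 with a lower one (1.06%), 2.11% of all genes tested. The same count after adjustment was 0 by DESeq2's Wald test, with 138 genes higher and 137 lower at an unadjusted p under 0.05, and 0 by limma voom, with 207 higher and 217 lower.

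The size of difference that these 30 mice could have left unseen is given by the interval of each gene's interaction. The 95% interval extended a median of 0.26 on the log2 scale to either side of the estimate. It lay wholly between −0.5 and 0.5 for 70.4% of the tested genes, and between −1 and 1 for 92.8%. The precision varied with expression level. In the tercile with the highest mean CPM (46.8 CPM and above) the interval stayed within 0.5 of zero for 96.8% of genes, but in the lowest tercile (up to 11.8 CPM) for 25.7%. Among genes that rose with injury in either isoform it stayed within 0.5 for 48.4% and within 1 for 83.4%, so for the rest of these induced genes a 2-fold or larger difference in response lay inside the interval.

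Within each isoform mice showed a large response. In E3 mice 1916 genes rose (13.2% of those tested) and 1648 fell (11.4%), and in E4 mice 1464 rose (10.1%) and 782 fell (5.39%). No gene was called in opposite directions. Of the genes that rose in E3, 65.4% were also called in E4, and these 1254 genes were 85.7% of those that rose in E4. Of the genes that fell, the 626 shared ones were 38.0% of the E3 list and 80.1% of the E4 list. The 662 genes that passed the threshold for a rise in E3 and not in E4 had a median log2 change of 0.36 in E3 and 0.20 in E4, and 96.5% of them were above zero in both. For the 1022 that passed for a fall in E3 alone, the medians were −0.21 and −0.12, and 97.0% were below zero in both. Since none of these genes passed the interaction test, a call in 1 isoform and not in the other does not show a difference in response.

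**Figure D1:**
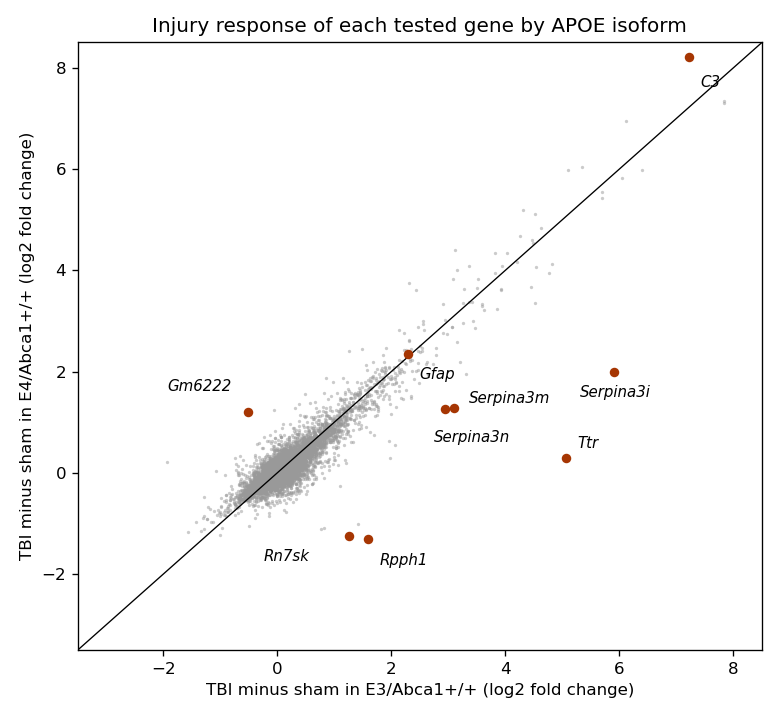
Log2 fold change from sham to TBI in E3/Abca1+/+ mice (horizontal) against that in E4/Abca1+/+ mice (vertical) for each of the 14505 tested genes, with the line of equality and selected genes in red. Most genes lie near the line (Pearson r across genes 0.915, genes not being independent replicates), while Serpina3n, Serpina3m, Serpina3i, Ttr, Rn7sk and Rpph1 lie below it.

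The genes with the smallest p for a rise are given with their change in each isoform. Gfap, the intermediate filament of astrocytes, ran from 252 to 418 CPM in E3 sham, from 1170 to 2070 in E3 TBI, from 216 to 305 in E4 sham and from 735 to 2220 in E4 TBI. Sham and injured mice did not overlap in either isoform, and the injured groups overlapped over most of their range. Gfap rose by 2.30 ± 0.16 (SE) in E3 and by 2.35 ± 0.17 in E4, with an interaction of 0.06 (95% interval −0.40 to 0.52). C4b, a complement component, rose by 2.50 and 2.39 on the log2 scale, Ctss, the lysosomal protease cathepsin S, by 1.86 and 1.82, and Lag3, an inhibitory receptor also found on microglia, by 2.11 and 2.09. For Cpe, which encodes carboxypeptidase E, the rise was small, 0.42 in E3 and 0.36 in E4. Clec7a, the phagocytic receptor dectin-1, rose by 5.34 and 6.04, with an interaction interval from −1.34 to 2.73.

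Among the genes with the smallest p for a fall, Lamp5, a vesicle protein of GABAergic terminals, changed by −1.03 ± 0.09 in E3 and −0.79 ± 0.09 in E4, an interaction of 0.23 (95% interval −0.03 to 0.50). Rph3a, which encodes the synaptic vesicle protein rabphilin, changed by −0.76 and −0.57 (interaction interval −0.01 to 0.40), and Scn4b, a sodium channel subunit, by −1.56 and −1.17 (interval −0.07 to 0.86). Cabp1, a neuronal calcium-binding protein, had −0.65 and −0.49. Scn1a, another sodium channel gene, and Osbpl3, which encodes an oxysterol-binding protein homologue, changed by −0.66 and −0.62 and by −0.70 and −0.65.

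To compare the overall size of the responses without using the same mice to choose genes, the genes called in the same direction in both isoforms of the Abca1+/- mice were taken. Of these, 1579 that rose were tested here, with medians of 0.60 in E3 and 0.56 in E4 and a median interaction of −0.04, and 1171 that fell had medians of −0.25 and −0.19 and a median interaction of 0.06. The median interaction over all genes was 0.01. E4 was further from zero than E3 for 38.9% of the genes that rose and for 19.2% of those that fell. By these medians and shares the rises and the falls were slightly smaller in E4. The genes vary together across mice, so the shares do not measure the spread between mice. Whether the overall size differed beyond that spread was not tested. Only 20 and 31 of these genes had an unadjusted interaction p under 0.05. In the Abca1+/- mice that chose the genes, the medians were 0.58 in E3 and 0.76 in E4 for the rises, and −0.24 and −0.27 for the falls.

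Injured mice varied among themselves more than sham mice did. The mean log2(CPM + 1) over the 1579 genes ran from 3.37 to 3.49 in E3 sham and from 3.36 to 3.49 in E4 sham, but from 3.89 to 4.45 in E3 TBI and from 3.77 to 4.53 in E4 TBI. The most extreme injured mouse on each side was in the E4 group, replicate 4 being lowest and replicate 6 highest. The E3 TBI range thus lay inside the E4 TBI range. Over the 1171 genes that fell the ranges of the injured groups overlapped as well. Lcn2, the acute-phase protein lipocalin 2, shows the same wide spread among injured mice. It was at 1.79 CPM or less in every sham mouse, at 19.1 to 164 CPM in E3 TBI, and in E4 TBI at 15.2, 18.1, 26.1, 26.7, 26.9, 200.1 and 309 CPM. The 2 highest E4 values, both from females, stood well apart from the other 5.

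Among the 30 genes with the smallest p, 15 in each direction, Serpina3n had the interaction furthest from zero of those above 10 CPM in every mouse. It encodes a secreted serine protease inhibitor, the mouse counterpart of alpha-1-antichymotrypsin, and is a widely used marker of reactive astrocytes. The gene lies on chromosome 12 (104406646 to 104414334, GRCm38) in a cluster of related Serpina3 genes, of which 5 were tested. The window around its annotated start is printed with that of Serpina3i, another tested member of the cluster. Both had negative interaction estimates, neither passing the threshold, and the pair was chosen with these estimates known. Serpina3m and Serpina3h also had negative estimates and are not printed. For Serpina3m no window was available. Capitals mark the 2 stretches of 15 bases, the longest that the pair shares. Sequences are from RefSeq, build GRCm38.p6, plus strand, chr12:104406458-104406757 for Serpina3n and chr12:104262872-104263171 for Serpina3i.
Serpina3n: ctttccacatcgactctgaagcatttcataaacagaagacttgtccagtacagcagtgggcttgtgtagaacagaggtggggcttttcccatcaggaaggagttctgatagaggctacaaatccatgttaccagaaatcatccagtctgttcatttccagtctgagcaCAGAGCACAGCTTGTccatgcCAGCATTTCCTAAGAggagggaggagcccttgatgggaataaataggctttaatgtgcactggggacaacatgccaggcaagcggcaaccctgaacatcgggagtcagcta
Serpina3i: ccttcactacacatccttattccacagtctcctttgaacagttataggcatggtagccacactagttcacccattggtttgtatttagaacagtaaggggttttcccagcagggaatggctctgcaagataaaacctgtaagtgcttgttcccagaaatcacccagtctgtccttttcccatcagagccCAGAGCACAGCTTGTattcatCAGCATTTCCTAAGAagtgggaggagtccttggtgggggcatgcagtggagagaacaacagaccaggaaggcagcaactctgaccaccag
Both were searched on both strands. The stretch CAGAGCACAGCTTGT is in 0.0154% of the 32544 distinct windows in the table, all from Serpina3 genes (Serpina3c, Serpina3f, Serpina3i and Serpina3n, 4 of the 8 Serpina3 genes listed). The stretch CAGCATTTCCTAAGA is in 0.0123%, from Serpina3b, Serpina3c, Serpina3i and Serpina3n. Such a match describes related sequence and not a site.

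In E3 sham mice Serpina3n was at 17.1, 23.6, 26.2, 26.8, 28.4, 30.01, 33.2 and 34.1 CPM (replicates ordered by value), with a median of 27.6. In E4 sham mice it was at 63.5, 84.1, 85.9, 96.8, 126, 161 and 166 CPM. Every E4 sham mouse was thus above every E3 sham mouse. After injury the values ran from 112 to 349 CPM in E3 (median 185) and from 114 to 791 in E4 (median 166), and the groups overlapped over nearly the whole E3 range. The TBI minus sham change was 2.94 on the log2 scale in E3 (adjusted p = 1.13e-07) and 1.26 in E4 (adjusted p = 0.00603, edgeR), and the interaction was −1.68 ± 0.45 (SE), with a 95% interval from −2.60 to −0.75 and adjusted p = 1 (edgeR).

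For Serpina3n the isoforms differed past the threshold in sham mice and not in injured mice. The missing call after injury does not show equal levels there. E4 exceeded E3 by 2.03 in sham (adjusted p = 0.00108, edgeR), in a comparison that called 0.317% of all genes, and by 0.36 after TBI (adjusted p = 0.82), in a comparison that called 0.345%. These contrasts use the same mice as the interaction and are no separate support for it. One injured mouse weighed on the Serpina3n estimate. E4 TBI replicate 6, at 791 CPM, also had the highest injury response and a high Ttr. Without it the interaction was −2.23 and passed the threshold (adjusted p = 0.00425, edgeR), the only gene to do so. Without the 5 libraries high in Ttr, an alternative chosen after seeing the data, it was −2.28 (adjusted p = 0.0251).

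**Figure D2:**
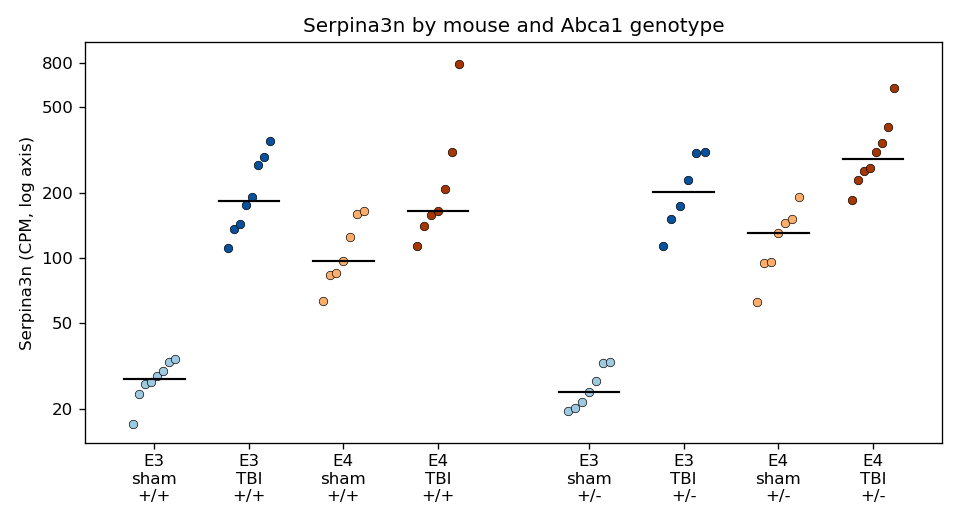
Serpina3n in CPM on a log axis for every mouse, by APOE isoform, treatment and Abca1 genotype, with each group's points ordered by value and a line at the median. In both Abca1 genotypes the E4 sham mice lie above the E3 sham mice without overlap, and the injured E3 and E4 mice overlap.

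Its neighbours in the cluster varied. Serpina3m, a close paralog, was at 0.0745 to 0.461 CPM in E3 sham, 0.513 to 2.80 in E3 TBI, 2.41 to 8.06 in E4 sham and 6.08 to 38.1 in E4 TBI. The isoforms differed in sham (4.71, adjusted p = 3.03e-06) and in TBI (2.88, adjusted p = 5.88e-06, edgeR), and the interaction was −1.82 (95% interval −3.32 to −0.33, adjusted p = 1, edgeR). Serpina3i was at 0 counts in all 8 E3 sham mice and at 0.174 to 1.48 CPM in E3 TBI, against 0 to 1.01 in E4 sham and 0.579 to 6.27 in E4 TBI, near the detection floor in most libraries, so its place in the plot of responses depends on the prior count. Serpina3h, annotated as a transcribed pseudogene, was higher in E4 by 4.56 in sham (adjusted p = 0.00354) and also in TBI (adjusted p = 1.73e-04, edgeR), with an interaction of −0.56 (95% interval −2.79 to 1.68). For Serpina3g the isoforms overlapped in both conditions, and the interaction was 0.27 (−0.80 to 1.33). The interactions of Serpina3g and Serpina3h changed sign under some alternatives. Because these genes are closely related, how reads were divided among them could not be determined from the counts.

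Isoform differences on chromosome 12 were not limited to the Serpina3 cluster. Of the 46 genes that differed between isoforms in sham mice, 6 were on chromosome 12 (of 538 tested), 7 on chromosome 6 (of 715) and 7 on chromosome 7 (of 1088), against 0.317% over all chromosomes. Chromosome 7 carries the replaced Apoe locus. On chromosome 12 they were Serpina3m, Serpina3n, Serpina3h, Ighg2c, AK010878 and D430020J02Rik. After TBI chromosome 12 held 6 of 50, chromosome 6 held 3 and chromosome 7 held 11. The 19 genes that differed in both conditions include Eps8l1, Ptprh and Rdh13 on chromosome 7, Fyn on chromosome 10 and Atf4 on chromosome 15. For Fyn, a Src family kinase, the isoform difference was 0.66 in sham and 0.60 in TBI with an interaction of −0.06. For Atf4, a transcription factor of the amino acid stress response, it was 0.44 and 0.45 with an interaction of 0.01. Serpina3n was called in sham alone.

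The remaining genes with the smallest p-values had either small differences or low counts. Slc16a4, a monocarboxylate transporter gene on chromosome 3 and the gene with the smallest p, was at 1.38 to 2.89 CPM in E3 sham, 1.48 to 4.74 in E3 TBI, 2.85 to 4.31 in E4 sham and 1.88 to 3.19 in E4 TBI. All 4 groups overlapped in part. Its interaction was −0.92 ± 0.25 (SE, adjusted p = 1, edgeR), from a response of 0.50 in E3 and −0.42 in E4. Kcnu1, a potassium channel gene at 1.33 to 4.73 CPM over all mice, had the reverse, −0.73 in E3 and 0.18 in E4. Mctp2, a calcium-binding membrane protein gene, had −0.69 and 0.14, and Pth2r, a parathyroid hormone receptor, −0.65 and 0.33, both below 4 CPM in every mouse.

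**Figure D3:**
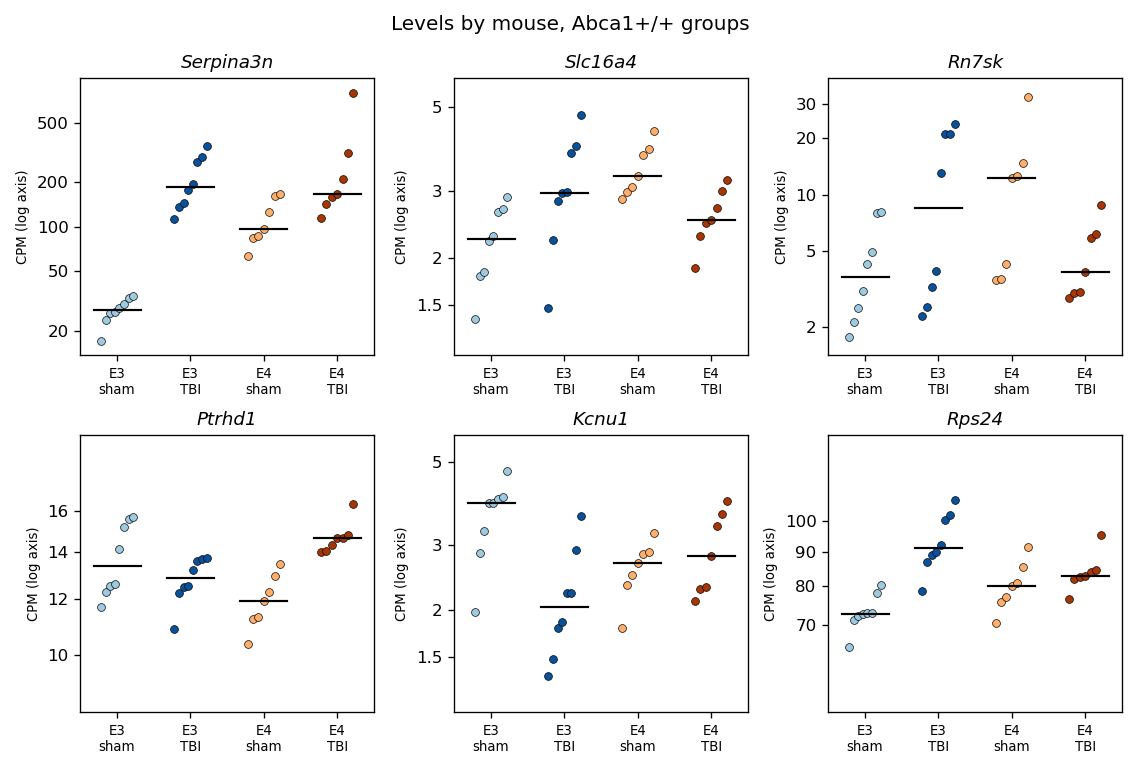
CPM on log axes for every mouse in the 4 Abca1+/+ groups for 6 genes with small interaction p-values, with points ordered by value and a line at the median. The sham groups of Serpina3n are wholly separate by isoform, and the E4 TBI points of Ptrhd1 lie above all other groups but part of E3 sham.

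Better measured genes had small differences. Ptrhd1, a peptidyl-tRNA hydrolase family gene, ran from 10.4 to 13.4 CPM in E4 sham and from 14.0 to 16.3 in E4 TBI without overlap, while E3 sham (11.7 to 15.7) and E3 TBI (10.9 to 13.7) overlapped. E4 TBI also lay wholly above E3 TBI. Its interaction was 0.38 (95% interval 0.17 to 0.59). Rps24, a small-subunit ribosomal protein gene, rose in E3 by 0.35 (adjusted p = 2.56e-05, edgeR) and had 0.07 in E4, an interaction of −0.28 (−0.45 to −0.11). Tbp, which encodes the TATA-binding protein and is often used as a reference gene, had a response of 0.17 in E3 and −0.19 in E4, neither past the threshold, and an interaction of −0.36 (−0.56 to −0.16). Nelfcd, a subunit of the negative elongation factor, had an E4 minus E3 difference of −0.24 in sham mice (adjusted p = 0.00797, edgeR) and −0.03 in injured mice, and rose in E4 by 0.17, an interaction of 0.21. Bcl6, a transcriptional repressor, and Depdc5, part of an inhibitor of mTORC1, fell in E3 by 0.40 and by 0.28 and had −0.03 and −0.06 in E4. Kcnn2 (a calcium-activated potassium channel), Zswim4, Dhx8 (an RNA helicase), Dnase1 and Tubgcp4 (of the gamma-tubulin ring) likewise fell in E3 and were between −0.08 and 0.13 in E4, with interactions from 0.21 to 0.55. Mrpl51 (a mitochondrial ribosomal protein) and Tuba1c (an alpha-tubulin) passed in neither isoform and had interactions of 0.27 and 0.39.

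On the side of lower responses in E4, Isg20l2, Lyrm2 and Rab12, a small GTPase of endosomes, rose in E3 by 0.27, 0.19 and 0.13 and had −0.09, −0.11 and −0.05 in E4. Lrrc40 and Rnr2, the mitochondrial large ribosomal RNA, fell in E4 by 0.25 and by 0.23 and had 0.01 and 0.07 in E3. Cecr2 and Gt(ROSA)26Sor had interactions of −0.47 and −0.36 and no called response. Cyp2t4 and Rab26os, below 3 CPM in every mouse, had −0.86 and −0.84. The pseudogene Gm6222, as low, went the other way and rose in E4 by 1.21 against −0.52 in E3, an interaction of 1.73. Rab26os is an antisense gene, and the use of strand in counting is not stated.

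Among the 30 genes with the smallest p, 2 short non-coding RNAs had the estimates furthest from zero. Rn7sk, the RNA that holds the elongation factor P-TEFb inactive, was at 1.76 to 8.05 CPM in E3 sham, 2.28 to 23.7 in E3 TBI, 3.51 to 33.0 in E4 sham and 2.82 to 8.82 in E4 TBI, and Rpph1, the RNA component of RNase P, had 0 counts in 1 mouse each of E3 sham, E3 TBI and E4 TBI and reached 6.15 CPM in an E4 sham mouse. The interactions were −2.50 (95% interval −3.94 to −1.07) and −2.90 (−4.76 to −1.04), and neither gene passed the threshold for any comparison with sham. High values occurred in some mice of E3 TBI and E4 sham. How far library preparation varied in its capture of such RNAs was not tested.

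**Figure D4:**
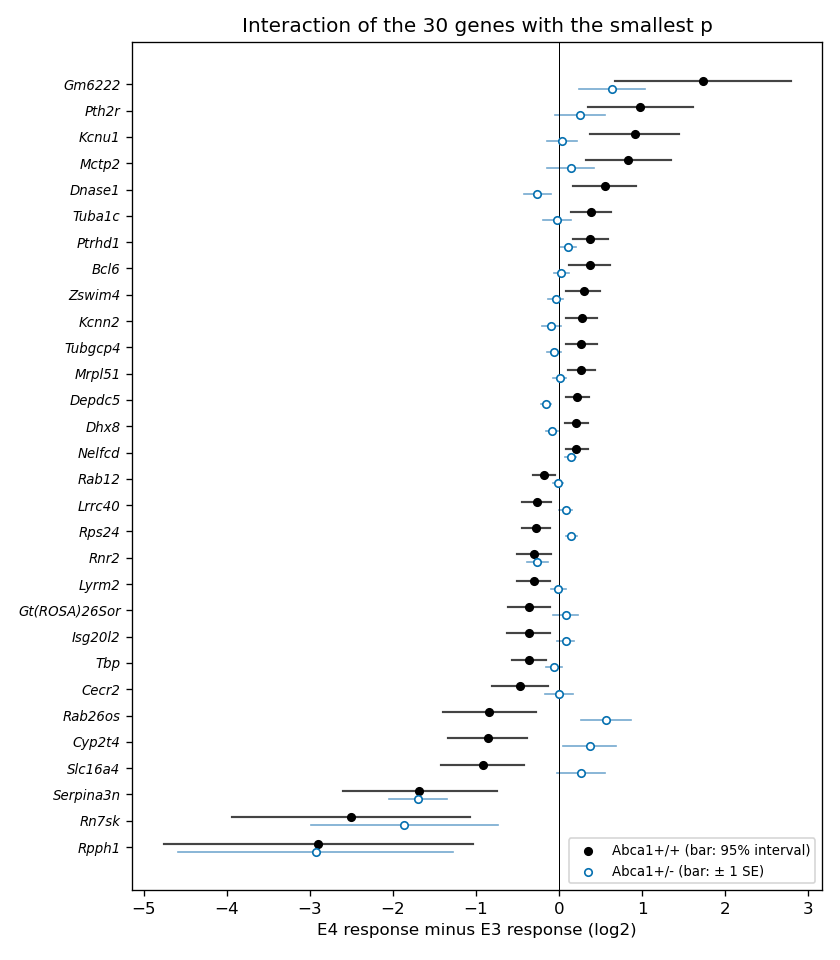
E4 response minus E3 response on the log2 scale for the 30 genes with the smallest p, 15 in each direction, in Abca1+/+ mice (filled, 95% interval) and in Abca1+/- mice (open, 1 SE to either side). The Abca1+/+ intervals exclude zero because the genes were chosen by p. Serpina3n, Rn7sk and Rpph1 have like estimates in both sets of mice, while most others are near zero or of opposite sign in Abca1+/-. The Abca1+/- estimates of Rn7sk and Rpph1 have wide errors (SE 1.13 and 1.66).

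Nearly all microglial genes listed rose in both isoforms, against 13.2% of all genes tested in E3 and 10.1% in E4. Of 20 tested genes of the disease-associated microglia list, 19 rose in each isoform, with a median of 1.98 in E3 and 1.81 in E4 and a median interaction of −0.03, against 0.01 over all genes. The interval lay between −1 and 1 for 12 of the 20, and the median interaction was −0.27 without E4 TBI replicate 6. Trem2, the lipid-sensing receptor of this state, was at 9.21 to 11.6 CPM in E3 sham, 28.6 to 59.1 in E3 TBI, 9.07 to 11.2 in E4 sham and 21.6 to 66.7 in E4 TBI, with no overlap between sham and injury, and its interaction was −0.10 (95% interval −0.65 to 0.45). Ccl6, a chemokine gene, had 2.35 in E3 and 1.48 in E4 (interaction −0.86, 95% interval −1.74 to 0.01). Of the 14 homeostatic microglia genes 13 rose in each isoform, with medians of 0.64 and 0.70, and P2ry12, the purinergic receptor by which microglia sense ATP and ADP, had the smallest p of the list (interaction −0.20, 95% interval −0.44 to 0.04). Of 28 microglia sensome genes that the study names, 27 rose in each. Ptafr, the receptor for platelet-activating factor, had 1.49 in E3 and 2.45 in E4, an interaction of 0.95 (95% interval 0.03 to 1.88).

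Most complement, interferon and antigen presentation genes listed rose in both isoforms, against 13.2% of all genes tested in E3 and 10.1% in E4. Of 16 complement genes 14 rose in E3 and 13 in E4 (medians 1.62 and 1.70). C3, the central component, was at 0.199 to 1.88 CPM in sham mice of both isoforms and at 34.6 to 474 CPM after injury, with an interaction of 0.99 whose interval, −2.64 to 4.62, is wide because sham counts were low. All 20 interferon-stimulated genes tested rose in both isoforms, with a median of 1.67 in each. Of the MHC class I list 14 of 15 rose in each, with medians of 1.71 and 1.61 and a negative estimate of the interaction for 12 of the 15. Of the MHC class II list 6 of 8 rose in E3 and 7 of 8 in E4 (median interaction 0.06), and H2-Aa had 2.14 and 2.82. Chemokine and cytokine genes had medians of 1.91 and 1.92, and Ccl12, a monocyte attractant, the smallest p (interaction 1.17, 95% interval −0.30 to 2.64).

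Most reactive astrocyte genes rose as well, against 13.2% of all genes tested in E3 and 10.1% in E4. Of 18 reactive astrocyte genes 16 rose in each isoform, with a median interaction of −0.13, and Serpina3n was the only member with an unadjusted p under 0.05. Aspg, an asparaginase gene, had 1.72 and 1.35, and Timp1, an inhibitor of matrix proteases, 4.45 and 3.67. Among 15 homeostatic astrocyte genes 7 rose in E3 and 8 in E4. Aqp4, the water channel of astrocyte endfeet, rose by 1.12 and 0.94, with an interaction of −0.18 (95% interval −0.54 to 0.18).

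Lipid genes are the class closest to APOE and ABCA1. Over all genes tested 13.2% rose in E3 and 10.1% in E4, and 11.4% and 5.39% fell. Of 20 genes of cholesterol efflux and the LXR pathway 12 rose in each isoform, with medians of 0.31 and 0.34, and Abcg4, a sterol exporter, had the smallest interaction p (0.11 on the log2 scale, 95% interval −0.03 to 0.24). Sterol synthesis genes fell, 14 of 18 in E3 and 13 in E4, with a median of −0.32 in each. Srebf2, the master regulator of that pathway, was at 221 to 281 CPM in E3 sham, 155 to 216 in E3 TBI, 241 to 264 in E4 sham and 188 to 233 in E4 TBI. Sham and injured mice were wholly separate in both isoforms, and the change was −0.47 in E3 and −0.28 in E4, an interaction of 0.19 (95% interval 0.02 to 0.36, adjusted p = 1, edgeR). Sorl1, a sorting receptor, changed by −0.61 and −0.39. Of the 21 lysosomal genes tested 20 rose in each isoform, with medians of 1.11 and 1.04 and interactions between −0.18 and 0.13.

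Most genes of synaptic vesicle release and of potassium channels fell in E3, and fewer were called in E4, with medians a little nearer to zero in E4. Of 19 genes of synaptic vesicle release 15 fell in E3 and 10 in E4, with medians of −0.24 and −0.17. All 19 had an interaction above zero, between 0.03 and 0.23, and a median of 0.07. These genes vary together across mice, so the 19 are not separate observations. Stx1a, a syntaxin of the release machinery, had −0.29 and −0.21. Of 22 potassium channel genes 19 fell in E3 and 11 in E4, with medians of −0.34 and −0.24. Kcnh3 changed by −0.44 and −0.25 (interaction 0.18, 95% interval 0.03 to 0.34). Over all genes tested 11.4% fell in E3 and 5.39% in E4, so the lower number of calls in E4 was not particular to these lists. In the Abca1+/- mice both lists had estimates on the other side, medians of −0.05 and −0.12, and the difference from the Abca1+/+ mice was not tested for the lists.

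Activity-dependent genes were lower after injury as well. Of 19 immediate early genes 14 fell in E3 and 8 in E4 (medians −0.61 and −0.53), and 18 had an interaction above zero. Egr3, a zinc finger factor, changed by −0.99 and −0.67. Of the 12 late activity-regulated genes 8 fell in E3 and 6 in E4. Bdnf, a neurotrophin, had −0.71 and −0.45, and Vgf, a neuropeptide precursor, −0.67 and −0.41. Genes of interneurons (5 of 15 fell in E3, 4 in E4), cortical layers (5 of 15 in each), hippocampal subfields (5 of 15 in each), GABA-A receptors (4 and 3 of 12) and AMPA and NMDA receptors (3 and 1 of 10) fell in part, against 11.4% and 5.39% of all genes. Their medians in E3 and E4 were, in that order, −0.21 and −0.12, −0.20 and −0.16, −0.17 and −0.24, −0.12 and −0.11, and −0.15 and −0.16. Of these lists Grin2c, an NMDA receptor subunit, rose in both isoforms (0.24 and 0.30), and Ctgf and Wfs1 rose in E4 (0.27 and 0.47). No member had an unadjusted interaction p under 0.05.

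In 3 further lists nearly all interactions lay on 1 side of zero. The same held for the synaptic vesicle release and immediate early genes above, and for 11 of the 12 late activity-regulated genes. Members of a list are not independent replicates, so these counts do not measure the spread between mice. All 13 mitochondrially encoded genes had a negative interaction, with a median of −0.18, medians of 0.11 in E3 and −0.16 in E4, and no called response in either isoform. ND6 had an interaction of −0.26 and CYTB of −0.18, both with an unadjusted p under 0.05. In the Abca1+/- mice the median was 0.12. Of 17 genes of endoplasmic reticulum chaperones and the unfolded protein response 16 were above zero (median 0.12, and −0.02 in Abca1+/- mice), and Sel1l was called lower in E3. The only member with an unadjusted p under 0.05 went the other way, Dnajb9 with −0.14. Of 18 myelin and oligodendrocyte genes 16 were above zero (median 0.09, and 0.03 in Abca1+/- mice), with 3 called lower in E3 and none in E4. Of the 37 tested genes in the list of Apoe and its neighbours on chromosome 7, 3 had an unadjusted p under 0.05, all higher in E4. They were Six5 (0.72), Sympk (0.17) and Opa3 (0.18).

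Markers of other cells were uneven between groups. The summed level of 9 choroid plexus genes ran from 17.9 to 34.9 CPM in E3 sham, 19.2 to 1400 in E3 TBI, 13.7 to 1090 in E4 sham and 17.1 to 1840 in E4 TBI, and Ttr had the lowest interaction estimate of the list at −4.76 (95% interval −9.66 to 0.13). Hba-a2, a haemoglobin gene and the only erythrocyte gene tested, reached 0.571 CPM in E3 sham, 3.59 in E3 TBI, 5.99 in E4 sham and 1.88 in E4 TBI. Its interaction was −2.43 (95% interval −4.24 to −0.61, adjusted p = 1, edgeR), the same direction as for Serpina3n. The part of blood and choroid plexus in these results was not tested. Leaving out the 5 libraries high in Ttr kept the direction for Serpina3n. It also removed E4 TBI replicate 6, the mouse with the most Serpina3n (791 CPM), so that exclusion is no test of choroid plexus. The 11 genes of infiltrating and border macrophages rose with injury for 7 members in each isoform, and of the neutrophil and T cell list S100a8 alone was tested.

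Of 21 pericyte, fibroblast and matrix genes 14 rose in E3 and 9 in E4 (medians 0.55 and 0.47), of 17 endothelial and barrier genes 2 and 0, and of 11 proliferation genes 4 and 3, among them Mcm3, a replication helicase subunit, with 1.03 and 0.49. Of 11 iron and heme genes 6 rose in each. Of 14 amino acid stress genes 7 rose in E3 and 5 in E4. The numbers that rose in E3 and E4 were 1 and 0 of 20 aminoacyl-tRNA synthetases, 1 and 1 of 12 cytosolic heat shock genes and 1 and 2 of 12 genes of thalamus and striatum, against 13.2% and 10.1% of all genes. Of the synthetases 5 fell in E3 and 1 in E4, and Farsa and Mars had interactions of 0.20 and 0.16 with an unadjusted p under 0.05. Over all these lists no gene passed the adjusted threshold for the interaction.

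The same contrast in the 28 Abca1+/- mice, which share no animal with the 30, also called 0 of 15162 genes (0%), with 611 higher and 350 lower at an unadjusted p under 0.05. By DESeq2's Wald test 3 genes passed there, Serpina3n, Spsb2 and Stra13, each with an adjusted p of 0.0482. Across the 14505 genes tested in both sets the interaction estimates were unrelated (r = −0.012, across genes, which are not independent replicates), and 16 of the 30 genes with the smallest p had the same sign in both. The Abca1+/- libraries were deeper, with group medians from 15116304 to 22835554 counts, against 6835372 to 9715595 in Abca1+/+ mice. Depth thus largely went with Abca1 genotype, and its part in comparisons between both sets was not tested.

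Of the 30 genes, Rpph1 had −2.90 in Abca1+/+ and −2.93 ± 1.66 (SE) in Abca1+/- mice, and Rn7sk −2.50 and −1.86 ± 1.13. Rnr2 had −0.30 and −0.26 ± 0.13, and Nelfcd 0.21 and 0.14 ± 0.07. None of these passed the adjusted threshold in either set. Others reversed, such as Rps24 with −0.28 and 0.15 and Depdc5 with 0.22 and −0.16. Serpina3n in Abca1+/- mice ran from 19.5 to 33.1 CPM in E3 sham (median 24.1), 114 to 310 in E3 TBI (202), 63.1 to 192 in E4 sham (132) and 187 to 615 in E4 TBI (288). As in the Abca1+/+ mice, the E4 sham group lay wholly above the E3 sham group and the injured groups overlapped. The interaction was −1.70 ± 0.35 (SE, adjusted p = 0.265, edgeR), against −1.68 in Abca1+/+, and the difference between these was 0.01 (adjusted p = 1). Averaged over both Abca1 genotypes in all 58 mice, a contrast chosen after seeing the data, the interaction of Serpina3n was −1.69 with an adjusted p of 0.011 (edgeR). It was the single gene called among 15171 (0.00659%). Serpina3m had −2.03 in Abca1+/- mice (adjusted p = 0.727, edgeR).

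Whether the interaction itself differed with Abca1 copies was tested by the contrast of both interactions over 58 mice. It called 0 of 15171 genes, with 239 higher and 434 lower at an unadjusted p under 0.05 (edgeR), and the smallest p was that of Rps24 (−0.44, adjusted p = 0.979). Depdc5 followed, with 0.37. DESeq2 called 0 genes as well.

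The contrast was also examined by sex. In males alone and in females alone 0 genes passed, and a test of whether the interaction differed between females and males, chosen after seeing the data, called 0 of 14966 genes (236 higher and 273 lower at an unadjusted p under 0.05, edgeR). Serpina3n had an interaction of −2.34 in males (adjusted p = 0.105) and −1.18 in females (adjusted p = 1), and the difference of 1.15 had an adjusted p of 1 (edgeR). Within libraries above 8000000 counts it was −2.19 and within those below −1.26, with adjusted p-values of 1.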

How the data were processed

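RNA-seq counts of 30 mice in 4 groups were compared, with 28 Abca1+/- mice as a separate set. The authors deposited raw read counts per gene, not normalised; the submitters' processing notes name mm10, Subread 1.5.0, featureCounts and edgeR. Whether strand was used and how RNA was selected are not given in the sources used here. The table held 15171 genes after 2 rows without a gene were left out, 23 symbols changed into dates were restored from gene identifiers, and 14999 genes matched RefSeq identifiers (GRCm38.p6, the same assembly as mm10). Blank rows held 0% of the counts. All 58 columns were matched to mice by the animal number, isoform, sex and treatment in the titles.

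Counts were filtered (666 genes left out), TMM-scaled and tested with edgeR 4.0.16 in R 4.3.3 by the quasi-likelihood test, with 1 fit of the 4 groups and no covariates, and Benjamini-Hochberg adjustment at 0.05 over all genes tested. Levels are CPM and are not scaled by gene length. Standard errors are the absolute log2 change divided by the root of F. Intervals rest on the spread between mice, and detection floors of 3 counts cover counting error only. The test was checked on simulated data. Genes named for the interaction are the 15 with the smallest p in each direction, those for each response the 5 with the smallest p in each direction, and those of a list the few with the smallest interaction p, with the Serpina3 genes, Ttr, Lcn2, Fyn, Atf4 and other isoform genes named after their values were seen. The members and gene lists were chosen with earlier results of these data known. Alternatives were other scalings, filters, tests (DESeq2 1.42.0, limma 3.58.1), sex, depth and leaving out each mouse. Some genes of the lists are not reported here.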

Additional observations from a re-analysis of the deposited data

Results flagged for a closer look

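Among 120 sets of values, the 4 groups for each of the 30 genes with the smallest interaction p, 8 had a mouse that stood apart from the rest of its group by Dixon's test on log2(CPM + 1). Chance alone gives about 1 in 20. Each concerns 1 mouse in 1 group, and their cause was not tested. In E4 TBI, Ptrhd1 was at 16.3 CPM in replicate 7 against 14 to 14.8 in the others, Pth2r at 2.51 in replicate 3 against 1.41 to 1.76, and Isg20l2 at 10.6 in replicate 2 against 14.2 to 16.2. In E3 TBI, Nelfcd was at 41.8 CPM in replicate 7 against 45.8 to 49. In E3 sham, Tubgcp4 was at 29.1 CPM in replicate 5 against 19.7 to 23.7, and the mitochondrial ribosomal RNA Rnr2 at 3190 CPM in replicate 7 against 3900 to 4320. In E4 sham, Cyp2t4 was at 1.2 CPM in replicate 6 against 1.64 to 1.94, and Rab12 at 111 CPM in replicate 4 against 96.1 to 100. Serpina3n was not among them in any group.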

How the results depend on the processing

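The count of interaction genes was 0 under every scaling, filter, test and covariate tried, in each sex, and after thinning, apart from the looser threshold (306 at an unadjusted p under 0.05). It was 0 to 1 when each mouse was left out in turn, 1 without the 5 libraries high in Ttr and 1 averaged over both Abca1 genotypes, the gene being Serpina3n each time. In Abca1+/- mice it was 3 by DESeq2 and 961 at an unadjusted p under 0.05, and for the contrast with Abca1 copies 673. The E3 response counted 2.1e+03 genes in males (1130 higher and 945 lower), 1723 in females and 2876 to 3762 with a mouse left out. The E4 response counted 721 in males, 3968 at an unadjusted p under 0.05 and 1653 to 2880 with a mouse left out. E4 against E3 in sham counted 74 by DESeq2, 117 by limma voom, 91 in 1 fit of 58 mice, 18 in males, 5 in females, 965 unadjusted and 30 to 67 with a mouse left out (30 without E3 sham replicate 2). In TBI these were 94 by DESeq2, 79 with sex as a covariate, 91 in 1 fit of 58 mice, 6 in females, 1338 unadjusted and 33 to 75 (33 without E4 TBI replicate 4). The 30 named genes kept their sign in every alternative run, with Serpina3n between −2.34 and −1.18. These runs reuse the mice by which the genes were chosen, so the kept sign is no separate support. In the Abca1+/- mice alone 16 of the 30 had the same sign. The interaction of Serpina3g became −1.18 in males, −0.02 without the libraries high in Ttr and −0.09 to 0.62 with a mouse left out, and that of Serpina3h became 0.42 averaged over both genotypes and 0.25 without those libraries. The causes were not tested. Libraries differ up to several-fold in depth, and low-count genes have wide intervals. No paired analysis was possible because the labels give no replicate numbers shared between groups.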
